A study of Mus musculus with 12 samples.

Results

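The interferon response and antigen presentation genes described here are 37 mouse genes taken by symbol from a given list. The rule itself uses no measured value, although earlier results of these data were known when the list was drawn up. All 37 were found among the 53465 gene IDs of the liver count table, and all 37 passed the filter on low counts. By role they comprise 5 transcription factors, 14 antiviral effectors and sensors, 5 interferon-inducible GTPases, 8 genes of MHC class I and its peptide loading, and 5 genes of MHC class II. They were measured by RNA-seq of total liver RNA in 4 groups of 3 libraries, which differ in genotype and diet. Control livers came from Pld1-Flox mice, whose genotype is labelled WT, and knockout (KO) livers from Pld1(H)-KO mice, described for the series as a hepatocyte-specific knockout and labelled at the sample level as a knockdown. Pld1 encodes phospholipase D1, which releases phosphatidic acid from phosphatidylcholine. Each genotype was kept either on normal chow or on a diet rich in fat (HFD), which by the description of the series lasted 20 weeks. No source used here names the Cre driver, the age and sex of the mice, or says whether each library came from a separate animal, so the p-values reflect only how far these libraries vary, and that variation may be technical.

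Interferons are secreted proteins that cells release on sensing virus or danger. Type I and type II interferons bind separate receptors, activate JAK kinases and STAT proteins, and with interferon regulatory factors (IRFs) switch on several families of interferon-stimulated genes. Type I signalling works through a complex that holds STAT2 and IRF9 and binds an element called the ISRE. Type II interferon raises IRF1 and CIITA, and CIITA is the co-activator on which transcription of MHC class II genes depends. Most nucleated cells, hepatocytes included, carry MHC class I, whereas MHC class II is mainly a property of dendritic cells, macrophages and B cells, among them the Kupffer cells, the resident macrophages of the liver. Bulk liver RNA mixes all of these cells, so more cells of a type and more RNA per cell cannot be told apart.

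Library totals ranged from 18215008 to 22378180 counts. Levels are given as CPM, counts relative to the scaled size of the library. Pld1 itself averaged 10.6 ± 1.28 CPM (SD, n = 3) in control and 4.03 ± 0.614 CPM in KO livers on chow. On HFD it averaged 7.13 ± 0.624 CPM in control and 2.597 ± 0.575 CPM in KO livers. The KO livers thus had less Pld1 RNA on either diet, with log2 fold changes of -1.39 (SE 0.14) on chow and -1.45 (SE 0.16) on HFD. Each of the 8 hepatocyte markers was detected. Their summed level was 94690 to 95665 CPM in control livers on chow, 92387 to 92740 in control livers on HFD, 88039 to 90047.5 in KO livers on chow and 102359 to 107354 in KO livers on HFD. The sums were thus lowest in KO livers on chow. In KO against control livers 3 were called higher and 5 lower on chow, and 7 higher and 1 lower on HFD, beside 31.2% and 32.4% of all tested genes called. The part of this in the results was not tested. Differences were tested with edgeR's quasi-likelihood test over 14778 genes. A gene is called higher or lower where its Benjamini-Hochberg adjusted p over all of these genes is under 0.05.

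On chow, the KO livers held more RNA of most of these genes. Of the 37 members, 21 were higher and 2 lower in KO than in control livers on chow, where 31.2% of all tested genes were called, 15.8% higher and 15.3% lower. The increase was at least 1.5-fold for 12 members, against 6.67% of all tested genes that were called higher by that much. The median log2 fold change of the members was 0.24, beside -0.0026 for all tested genes. On HFD the KO effect was smaller: 10 members were higher and 3 lower in KO livers, where 32.4% of all tested genes were called, 16.7% higher and 15.6% lower, and 1 member, Psmb8, was called at 1.5-fold or more, beside 7.19% of all tested genes. The median of the members was 0.12 on HFD. The share of members called on HFD, 35.1%, was near that of all genes, so nothing about the members is read from that count.

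The effect of the diet differed between the genotypes for part of the members. In control livers, 9 members were higher and 6 lower on HFD than on chow, beside 37.7% of all tested genes called, 18.8% higher and 18.9% lower. In KO livers, 2 were higher and 13 lower on HFD, beside 36.6% of all tested genes called, 18.5% higher and 18.1% lower. The difference of the KO effect between the diets, tested as an interaction, was called for 16 members, 4 higher and 12 lower on HFD, beside 29.8% of all tested genes, 15.2% higher and 14.7% lower. For 10 members, all lower, the difference was at least 1.5-fold, beside 7.32% of all tested genes lower by that size. These comparisons share libraries in pairs, so they are not independent of each other.

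For 25 of the 37 members the highest of the 4 group means was that of KO livers on chow, beside 27.0% of all tested genes. In 13 members each of the 3 libraries of KO livers on chow exceeded all 9 other libraries, beside 9.26% of all tested genes. These 13 were Bst2, Irf7, Irf8, Stat2, Ifit2, Ifi44, Oas2, H2-D1, Tapbp, H2-Aa, H2-Ab1, H2-Eb1 and Cd74, and they span 4 of the 5 roles. Gbp2 was the member whose 3 libraries were the highest in control livers on HFD, beside 9.28% of all tested genes. The members called in none of the 5 comparisons were 10, namely Irf1, Ifit1, Ifit3, Usp18, Mx1, Ifih1, Ddx58, Gbp7, Iigp1 and Tap1. The share of all tested genes called in none was not counted, so nothing is read from the number 10. The list held both called members and textbook interferon-stimulated genes without a call.

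**Figure D1:**
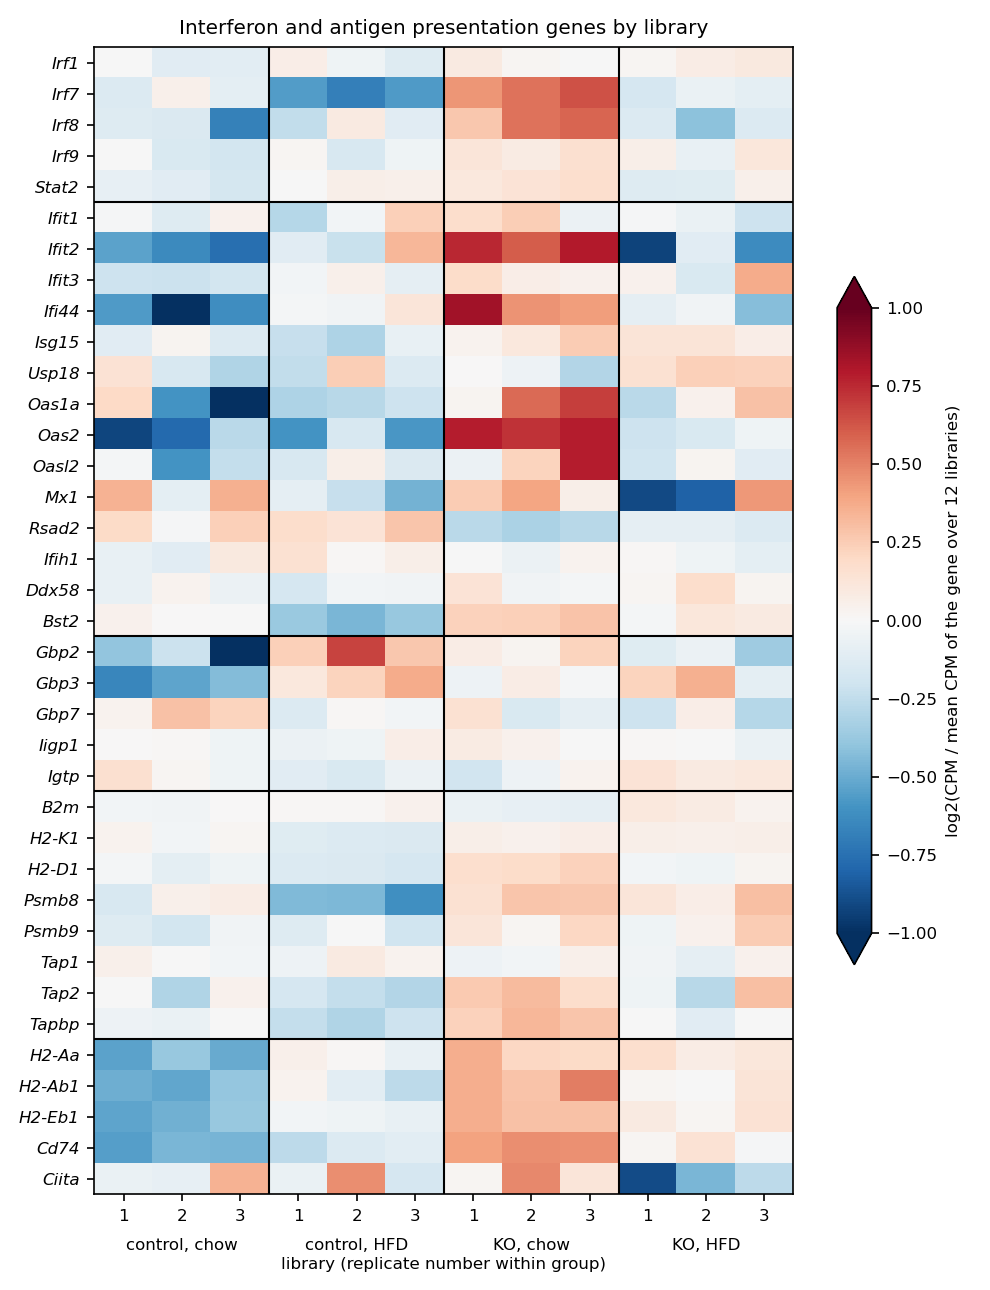
Level of each of the 37 members (rows, grouped by role with lines between roles) in each of the 12 libraries (columns, 3 per group), as log2 CPM relative to the mean of the gene over all libraries. The columns of KO livers on chow are the highest for 25 members by group mean, most plainly for Ifit2, Ifi44, Oas2 and the MHC class II genes.

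The levels spanned 4 orders of magnitude per length of exon. Averaged over all libraries, B2m, the light chain shared by all class I molecules, stood at 2227 CPM per kilobase of exon. The class I heavy chains H2-K1 and H2-D1 followed at 554 and 274 CPM per kilobase, and Bst2 was next at 113. The class II chains and their chaperone Cd74 lay between 7.79 and 26.4 CPM per kilobase. The lowest were Ifi44 at 0.323 and Ciita at 0.147. On the CPM scale, 9 members averaged under 5 CPM and 6 over 100 CPM, so a change of the same fold rests on far fewer counts in the first set.

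The interferons themselves were hardly seen. Ifnb1, Ifna2, Ifna4, Ifne, Ifnl2 and Ifnl3 had 0 counts in all 12 libraries, which allows up to 0.165 CPM of each in the shallowest library, for counting error only. Ifng, the type II interferon, had 3 counts in all, 2 in control livers on chow and 1 in control livers on HFD. Of the 36 listed genes of ligands, receptors and signalling, these 7 included, 26 could be tested. In KO against control livers on chow 14 were higher and 1 lower, which is 57.7% of the 26 beside 31.2% of all tested genes. On HFD 5 were higher and 3 lower, 30.8% beside 32.4% of all tested genes. In control livers 6 were higher and 4 lower on HFD than on chow, 38.5% beside 37.7%, and in KO livers 4 were higher and 11 lower, 57.7% beside 36.6%. The difference of the KO effect between the diets was called for 12, 3 higher and 9 lower on HFD, 46.2% beside 29.8%. On HFD the KO effect, and in control livers the diet effect, were thus called about as often here as in all genes. The genes of this and the other wider lists that are named singly were chosen for their KO effect on HFD, so those effects are a description.

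Socs3, which encodes a feedback inhibitor of JAK kinases, had the highest level in KO livers on chow. It measured 7.37, 8.01 and 7.78 CPM in control livers on chow, 5.56, 5.802 and 5.16 in control livers on HFD, 24.7, 27.4 and 26.6 in KO livers on chow, and 7.94, 8.699 and 8.99 in KO livers on HFD. The KO libraries were above the control libraries on each diet, with log2 fold changes of 1.76 (SE 0.09, adjusted p = 1.7e-17) on chow and 0.63 (SE 0.11, adjusted p = 1.35e-05) on HFD. Tyk2, the JAK kinase of the type I receptor, was lower in KO livers on HFD (log2 fold change -0.41, SE 0.06, adjusted p = 2.15e-06) and at 0.03 (SE 0.06) on chow. Irf2, which competes with IRF1 for DNA, was higher in KO livers on both diets, by 0.27 (SE 0.05) on chow and 0.50 (SE 0.05) on HFD on the log2 scale. Irf5, an IRF prominent in macrophages, went from 19.4, 20.4 and 20.3 CPM in control livers on chow to 4.99, 5.67 and 4.78 CPM on HFD. That fall of Irf5 was called at -1.96 (SE 0.10, adjusted p = 8.49e-18), and in KO livers it was -1.24 (SE 0.10, adjusted p = 1.35e-12). Irf5 measured 16.2, 15.3 and 15.8 CPM in KO livers on chow, below all control libraries on chow. On HFD the KO libraries, at 7.44, 6.18 and 6.40 CPM, were above the control libraries. That KO effect on HFD was 0.38 (adjusted p = 0.0103), a call lost without replicate 3 of control livers on HFD (0.0553) or replicate 1 of KO livers on HFD (0.0866).

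Of the 5 transcription factors, 4 were higher in KO than in control livers on chow, 80.0% beside 31.2% of all tested genes called. Irf7 alone of them was also called on HFD, 20.0% beside 32.4%. Irf7, the regulator that amplifies type I interferon production, measured 26.7, 30.4 and 27.5 CPM in control livers on chow and 19.9, 18.4 and 19.8 CPM in control livers on HFD. In KO livers it measured 39.9, 42.97 and 45.7 CPM on chow and 26.1, 28.03 and 27.5 CPM on HFD. The KO libraries were higher than the control libraries within each diet, and the HFD libraries lower than the chow libraries within each genotype, with no overlap. The KO effect on Irf7 was 0.60 (SE 0.06, adjusted p = 7.62e-10) on chow and 0.49 (SE 0.07, adjusted p = 4.09e-07) on HFD, and the HFD effect was -0.55 (SE 0.07) in control and -0.66 (SE 0.06) in KO livers. The difference of the KO effects was not called (log2 -0.11, SE 0.09, adjusted p = 0.392).

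Irf8, an IRF of macrophages, dendritic cells and B cells, showed a KO effect that differed between the diets. Its levels were 5.92, 5.85 and 4.06 CPM in control livers on chow, 5.46, 6.88 and 5.98 in control livers on HFD, 7.81, 9.42 and 9.703 in KO livers on chow, and 5.88, 4.89 and 5.89 in KO livers on HFD. Only the KO libraries on chow stood apart from the other groups. The KO effect was 0.77 (SE 0.14, adjusted p = 3.73e-05) on chow and -0.14 (SE 0.14, adjusted p = 0.502) on HFD, and their difference was -0.91 (SE 0.20, adjusted p = 0.000597). Stat2, the partner of IRF9 in the type I complex, had a smaller change of the same kind, with 0.26 (SE 0.04, adjusted p = 4.18e-06) on chow, -0.10 (SE 0.04, adjusted p = 0.0654) on HFD and a difference of -0.36 (SE 0.06, adjusted p = 8.5e-06). Irf9 rose by 0.24 (SE 0.06, adjusted p = 0.00171) in KO livers on chow and had no other call. Irf1, the factor most directly induced by type II interferon, ranged from 20.5 to 23.96 CPM over all libraries, and its groups overlapped in each comparison of KO with control livers.

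The promoters of the antiviral genes are shown because the ISRE is the element the type I complex reads. The word GAAA, followed by any 2 bases and GAAA again, was searched on both strands of the 300 bases from 250 before to 50 after each start in RefSeq (build GRCm38.p6). Of the 37 members 29 had an entry, and 14 of these held a match in any entry. Of all 32851 promoters, counted singly rather than by gene, 3.44% held a match. The 8 members without an entry, which were not searched, were H2-Ab1, Cd74, Mx1, Ciita, Iigp1, Tap2, Usp18 and Oas2. In the sequences below, each 5′ to 3′ on the strand of the gene, capitals mark the matches. Gbp2 lies at chr3:142620413-142620712 (plus strand), Bst2 at chr8:71537423-71537722 (minus strand), Ifit1 at chr19:34640639-34640938 (plus strand) and Irf7 at chr7:141266375-141266674 (minus strand).
Gbp2: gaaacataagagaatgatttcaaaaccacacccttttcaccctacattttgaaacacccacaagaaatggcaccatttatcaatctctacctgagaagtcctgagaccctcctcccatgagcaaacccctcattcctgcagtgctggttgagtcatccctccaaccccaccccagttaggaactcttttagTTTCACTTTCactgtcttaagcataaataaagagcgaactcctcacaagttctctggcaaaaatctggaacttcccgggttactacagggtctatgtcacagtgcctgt
Bst2: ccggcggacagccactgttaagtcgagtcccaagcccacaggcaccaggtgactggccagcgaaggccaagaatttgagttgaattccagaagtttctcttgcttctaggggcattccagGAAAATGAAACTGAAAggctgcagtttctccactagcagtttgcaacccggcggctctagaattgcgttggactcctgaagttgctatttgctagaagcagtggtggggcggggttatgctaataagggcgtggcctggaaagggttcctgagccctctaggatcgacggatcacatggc
Ifit1: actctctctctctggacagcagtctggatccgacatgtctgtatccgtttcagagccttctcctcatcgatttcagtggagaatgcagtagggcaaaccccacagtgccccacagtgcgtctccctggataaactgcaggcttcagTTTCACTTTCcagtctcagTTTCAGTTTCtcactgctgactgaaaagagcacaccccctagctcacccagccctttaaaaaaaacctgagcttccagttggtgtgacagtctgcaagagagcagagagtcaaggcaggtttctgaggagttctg
Irf7: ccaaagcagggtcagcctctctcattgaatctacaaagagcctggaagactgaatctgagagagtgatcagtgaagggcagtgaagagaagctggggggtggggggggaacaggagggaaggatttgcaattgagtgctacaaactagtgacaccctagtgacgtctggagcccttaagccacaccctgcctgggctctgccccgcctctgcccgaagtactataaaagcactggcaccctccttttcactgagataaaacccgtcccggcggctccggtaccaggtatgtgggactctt
Bst2 and Ifit1 held 2 matches each, which overlap in Bst2, and Gbp2 held 1. In the Irf7 window these letters were not present. A match to these letters is a description of the sequence, and members with a match were found both among those with differences, such as Bst2 and Gbp2, and among those called in no comparison, such as Ifit1, Ifih1 and Ddx58.

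Of the 14 antiviral effectors and sensors, 6 were higher in KO than in control livers on chow, and 1, Rsad2, was lower. Thus 7 of the 14 were called on chow, beside 31.2% of all tested genes, 15.8% higher and 15.3% lower. On HFD 2 were higher and 2 lower in KO livers, 28.6% beside 32.4% of all tested genes. That share was below that of all genes, so nothing about the antiviral genes is read from it. The increases of Oas2, Ifit2 and Ifi44 were the largest among the 37 members on chow, and all 3 averaged under 5 CPM. Oas2, an enzyme that makes the 2-5A messenger of RNase L on sensing double-stranded RNA, measured 2.18, 2.41 and 3.42 CPM in control livers on chow, 2.73, 3.69 and 2.75 in control livers on HFD, 7.096, 6.81 and 7.11 in KO livers on chow, and 3.57, 3.71 and 4.01 in KO livers on HFD. All KO libraries on chow were above the rest of the libraries. Its KO effect was 1.38 (SE 0.16, adjusted p = 2.32e-08) on chow, a 2.61-fold increase, against 0.30 (SE 0.17, adjusted p = 0.201) on HFD, and the difference was -1.09 (SE 0.24, adjusted p = 0.000603).

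Ifit2, which binds viral RNA and limits translation, followed with 1.84, 1.72 and 1.59 CPM in control livers on chow, 2.47, 2.29 and 3.36 in control livers on HFD, 4.51, 4.06 and 4.62 in KO livers on chow, and 1.41, 2.47 and 1.73 in KO livers on HFD. The KO libraries were the highest on chow, while on HFD they overlapped with the control libraries. On chow the KO effect was 1.36 (SE 0.20, adjusted p = 2.36e-06), and the KO effect on HFD was lower by -1.90 (SE 0.30, adjusted p = 5.21e-06). On HFD the effect itself was -0.55 (SE 0.21, adjusted p = 0.0483), a call that was lost without any of 10 of the 12 libraries, with an adjusted p of 0.298 without replicate 3 of control livers on HFD. The rise of Ifit2 in control livers on HFD (0.67, SE 0.22, adjusted p = 0.0147) was lost without replicate 3 of control livers on chow (adjusted p = 0.057) or replicate 3 of control livers on HFD (adjusted p = 0.137).

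Ifi44, an interferon-induced protein, had 1.34, 0.934 and 1.29 CPM in control livers on chow, 1.96, 1.93 and 2.15 in control livers on HFD, 3.55, 2.71 and 2.64 in KO livers on chow, and 1.86, 1.93 and 1.47 in KO livers on HFD. The lowest group was control livers on chow and the highest KO livers on chow, with no overlap between them. The KO effect on chow was 1.32 (SE 0.23, adjusted p = 1.83e-05), and the KO effect on HFD was lower by -1.52 (SE 0.32, adjusted p = 0.000329). Ifi44 was also higher on HFD than on chow in control livers (0.77, SE 0.24, adjusted p = 0.0102), a call lost without replicate 2 of control livers on chow (adjusted p = 0.0708).

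The remaining antiviral calls were smaller or rested on single libraries. Bst2, which encodes tetherin, a membrane protein that holds budding virus at the cell surface, was called in all 5 comparisons. It measured 106, 103 and 102 CPM in control livers on chow, 79.1, 74.5 and 78.8 in control livers on HFD, 120.2, 121 and 125 in KO livers on chow, and 101, 111 and 109 in KO livers on HFD. The control livers on HFD were the lowest group and the KO livers on chow the highest. Its KO effect was 0.23 (SE 0.04, adjusted p = 7.32e-06) on chow and 0.46 (SE 0.04, adjusted p = 1.27e-11) on HFD, so for Bst2 the difference was 0.23 (SE 0.05, adjusted p = 0.00124), opposite in sign to that of Oas2, Ifit2 and Ifi44.

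Oas1a and Oasl2, relatives of Oas2, were higher in KO livers on chow, by 0.86 (SE 0.24, adjusted p = 0.00618) and 0.63 (SE 0.19, adjusted p = 0.00884). The call of Oas1a was lost without replicate 3 of control livers on chow (adjusted p = 0.072), and that of Oasl2 without replicate 2 of control livers on chow (0.0735) or replicate 3 of KO livers on chow (0.16). Rsad2, which encodes viperin, was the antiviral gene that was lower in KO livers on both diets. It measured 9.27, 8.06 and 9.57 CPM in control and 6.74, 6.53 and 6.71 CPM in KO livers on chow. On HFD it measured 9.16, 8.91 and 9.81 CPM in control and 7.64, 7.62 and 7.36 CPM in KO livers. The KO libraries were below the control libraries on both diets. Its KO effects were -0.43 (SE 0.11, adjusted p = 0.00243) on chow and -0.30 (SE 0.11, adjusted p = 0.0258) on HFD. The second call was lost without replicate 3 of control livers on HFD (adjusted p = 0.115) and without replicate 2 (0.0528) or replicate 3 (0.077) of KO livers on HFD.

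Isg15, a ubiquitin-like modifier, was higher in KO livers on HFD (log2 fold change 0.31, SE 0.12, adjusted p = 0.0397) and was at 0.20 (SE 0.12, adjusted p = 0.194) on chow. The call of Isg15 was lost without any of 5 libraries, namely replicates 1 and 2 of control livers on HFD and replicates 1, 2 and 3 of KO livers on HFD, with adjusted p-values up to 0.147. It was also lost with no count filter (0.0866), by DESeq2 (0.0829), with only the groups compared (0.0508) and with the length and GC trend removed, where it was 0.18 (adjusted p = 0.272). Ifit1 ranged from 4.89 to 7.09 CPM over all libraries, and its KO effect was 0.16 (SE 0.14) on chow and -0.09 (SE 0.14) on HFD. Usp18, the protease that removes ISG15, was at -0.01 (SE 0.15) and 0.23 (SE 0.14). Mx1, a dynamin-like restriction factor, was at 0.03 (SE 0.29) and -0.02 (SE 0.32), so at its level of 1.32 CPM a change of the size seen for Irf9 or Stat2 could not have been detected. The RNA sensors Ifih1 (MDA5) and Ddx58 (RIG-I) had KO effects of 0.01 (SE 0.06) and 0.06 (SE 0.06) on chow, and Ifit3 had 0.30 (SE 0.12, adjusted p = 0.0607).

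**Figure D2:**
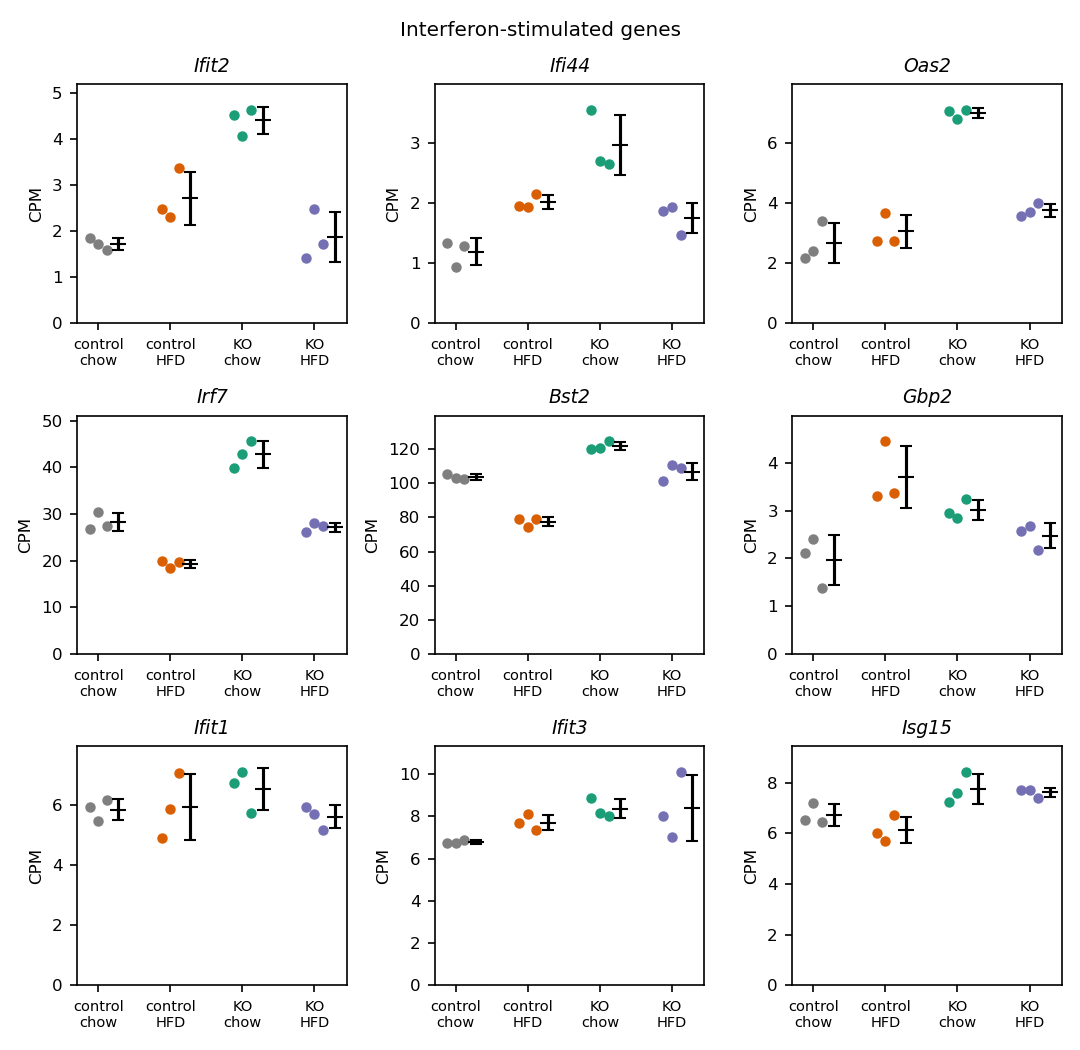
Level in CPM of interferon-stimulated members in each of the 12 libraries (points), by group, with the mean and SD of the 3 libraries beside them. Oas2, Ifit2 and Ifi44 were highest in the 3 libraries of KO livers on chow, at 7.11, 4.62 and 3.55 CPM at most, whereas Gbp2 was highest in control livers on HFD.

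The 5 interferon-inducible GTPases, which attack the vacuoles of intracellular pathogens, did not move together. Gbp2 measured 2.12, 2.41 and 1.39 CPM in control livers on chow, 3.29, 4.45 and 3.36 in control livers on HFD, 2.94, 2.85 and 3.25 in KO livers on chow, and 2.56, 2.68 and 2.18 in KO livers on HFD. Control livers on HFD were the highest group, and control livers on chow the lowest group by mean. In control livers the HFD effect was 0.91 (SE 0.20, adjusted p = 0.000405), and the KO effect was 0.61 (SE 0.21, adjusted p = 0.0236) on chow and -0.58 (SE 0.19, adjusted p = 0.0186) on HFD. The difference of the KO effects was -1.19 (SE 0.28, adjusted p = 0.0014), a reversal of sign between the diets. The KO effect on chow was lost as a call without replicate 3 of control livers on chow (adjusted p = 0.181) or replicate 3 of KO livers on chow (0.0787), and that on HFD without replicate 2 of control livers on HFD (0.143) or replicate 3 of KO livers on HFD (0.0829).

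Gbp3 was higher on HFD in control livers by 0.77 (SE 0.15, adjusted p = 7.38e-05) and higher in KO livers on chow by 0.54 (SE 0.15, adjusted p = 0.00658). The difference of its KO effects was -0.61 (SE 0.21, adjusted p = 0.0239), and was lost as a call without replicate 1 of control livers on chow (0.0596), replicate 3 of control livers on HFD (0.0718), replicate 2 of KO livers on chow (0.0564) or replicate 3 of KO livers on HFD (0.079). Igtp, an immunity-related GTPase, was higher in KO livers on HFD by 0.22 (SE 0.07, adjusted p = 0.0102) and at -0.11 (SE 0.07, adjusted p = 0.22) on chow, with a difference of 0.33 (SE 0.09, adjusted p = 0.00717). Its rise on HFD in KO livers (0.18, SE 0.07, adjusted p = 0.0366) was lost without replicate 1 or 2 of KO livers on chow or any replicate of KO livers on HFD, with adjusted p-values up to 0.213. Iigp1, the most abundant of the 5 per length, ranged from 229 to 254 CPM over all libraries, with KO effects of 0.05 (SE 0.03) on chow and -0.01 (SE 0.03) on HFD. Gbp7 stood at -0.22 (SE 0.12) and -0.09 (SE 0.12). Guanylate-binding proteins have close relatives in the genome, and no source used here says how reads shared between them were counted.

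The MHC class I genes differed by less than 1.5-fold where called, except Psmb8 in KO against control livers on HFD. Of these 8 genes, 5 were higher in KO than in control livers on HFD and none was lower, 62.5% beside 32.4% of all tested genes called. On chow 5 were higher and 1 lower, and in control livers 4 were lower on HFD and none was higher. Tapbp, which encodes tapasin, the bridge between class I molecules and the peptide transporter, measured 80.2, 79.4 and 82.7 CPM in control livers on chow, 70.5, 67.4 and 72.1 in control livers on HFD, 97.7, 105 and 101 in KO livers on chow, and 83.00, 76.8 and 82.7 in KO livers on HFD. KO libraries were above control libraries on each diet, and HFD libraries lay below chow libraries in KO livers and in control livers. The KO effect was 0.32 (SE 0.04, adjusted p = 7.4e-08) on chow and 0.21 (SE 0.04, adjusted p = 0.000154) on HFD.

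Psmb8, a catalytic subunit of the immunoproteasome, which cuts peptides for class I, had the largest KO effect on HFD among the 13 members called there. It measured 6.36, 7.37 and 7.49 CPM in control livers on chow, 5.25, 5.22 and 4.65 in control livers on HFD, 7.91, 8.63 and 8.59 in KO livers on chow, and 7.74, 7.46 and 8.78 in KO livers on HFD. Control livers on HFD were below all other libraries. The KO effect on HFD was 0.67 (SE 0.12, adjusted p = 3.9e-05), beside 0.24 (SE 0.11, adjusted p = 0.115) on chow, with a difference of 0.43 (SE 0.17, adjusted p = 0.0501) that was not called. Psmb9, another immunoproteasome subunit, was higher in KO livers on chow by 0.23 (SE 0.09, adjusted p = 0.0373), a call lost without replicate 1 (0.0855) or replicate 2 (0.141) of control livers on chow and without replicate 1 (0.0772) or replicate 3 (0.162) of KO livers on chow. Of the peptide transporter, Tap2 was higher in KO livers on chow by 0.33 (SE 0.10, adjusted p = 0.0143), a call lost without replicate 2 of control livers on chow (0.131) or replicate 2 of KO livers on chow (0.0625). Tap1 ranged from 30.5 to 34.4 CPM over all libraries, and its KO effects were -0.01 (SE 0.06) and -0.05 (SE 0.06).

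The heavy chains and the light chain are so abundant that very small changes passed the test. H2-D1 measured 697, 658 and 687 CPM in control livers on chow, 642, 638 and 629.6 in control livers on HFD, 793, 800.2 and 829.7 in KO livers on chow, and 693, 685 and 721 in KO livers on HFD. KO libraries exceeded control libraries on both diets, with effects of 0.25 (SE 0.02, adjusted p = 8.5e-10) on chow and 0.14 (SE 0.02, adjusted p = 4.74e-05) on HFD. H2-K1 was higher in KO livers on HFD by 0.19 (SE 0.02, adjusted p = 2.68e-10). On chow H2-K1 was higher by 0.05 (SE 0.02, adjusted p = 0.0458), a call lost without any of 6 libraries, with adjusted p-values up to 0.289, and its sign was negative (-0.05, adjusted p = 0.0301) once the trend of fold changes with transcript length and GC content was removed. B2m changed by -0.06 (SE 0.02, adjusted p = 0.0114) on chow and 0.05 (SE 0.02, adjusted p = 0.0358) on HFD, and both signs reversed with that trend removed. The B2m call on chow was lost without replicate 3 of control livers on chow (0.0913), and that on HFD without replicate 1 (0.103) or 2 (0.126) of control livers on HFD or replicate 1 (0.221) or 2 (0.11) of KO livers on HFD. The class I heavy chains are near-identical in long stretches to each other and to the H2-Q genes, so reads could have been split between them.

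Among the MHC class II genes, the 4 that encode the chains of the I-A and I-E molecules and the invariant chain were higher in KO than in control livers on chow, by 1.65-fold for H2-Aa, 1.71-fold for H2-Eb1, 1.804-fold for H2-Ab1 and 1.91-fold for Cd74. The same 4 were higher on HFD than on chow in control livers, and their KO effect was smaller on HFD in the test of the difference. In each of these comparisons 80.0% of the 5 class II genes were called, beside 31.2%, 37.7% and 29.8% of all tested genes. H2-Aa, the I-A alpha chain, measured 20.4, 22.8 and 20.8 CPM in control livers on chow, 30.6, 29.8 and 28.1 in control livers on HFD, 38.2, 34.1 and 33.8 in KO livers on chow, and 33.2, 31.1 and 32.03 in KO livers on HFD. H2-Ab1, the I-A beta chain, measured 24.8, 24.3 and 26.6 CPM in control livers on chow, 35.6, 32.4 and 29.05 in control livers on HFD, 44.7, 42.5 and 49.5 in KO livers on chow, and 35.3, 34.7 and 37.97 in KO livers on HFD. In both genes all control libraries on chow were the lowest and all KO libraries on chow the highest.

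H2-Eb1, the I-E beta chain, measured 18.7, 19.3 and 20.7 CPM in control livers on chow, 26.4, 26.1 and 25.6 in control livers on HFD, 34.7, 32.9 and 33.02 in KO livers on chow, and 28.7, 27.2 and 29.7 in KO livers on HFD. Cd74, the invariant chain that guides class II molecules to the endosome, measured 30.4, 32.3 and 32.2 CPM in control livers on chow, 37.01, 40.4 and 41.3 in control livers on HFD, 58.8, 61.3 and 60.9 in KO livers on chow, and 45.02, 49.1 and 43.9 in KO livers on HFD. The 4 groups did not overlap in H2-Aa, H2-Eb1 or Cd74, and their order was, from low to high, control chow, control HFD, KO HFD and KO chow. The KO effects on chow were 0.73 (SE 0.06, adjusted p = 2.42e-11) for H2-Aa, 0.85 (SE 0.07, adjusted p = 2.38e-12) for H2-Ab1, 0.78 (SE 0.06, adjusted p = 2.04e-12) for H2-Eb1 and 0.93 (SE 0.05, adjusted p = 5.87e-16) for Cd74.

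On HFD the KO effect was called for Cd74 only, at 0.21 (SE 0.05, adjusted p = 0.00159). That 1 call is 20.0% of the 5 class II genes, beside 32.4% of all tested genes. H2-Aa stood at 0.12 (SE 0.06, adjusted p = 0.114), H2-Ab1 at 0.16 (SE 0.07, adjusted p = 0.0638) and H2-Eb1 at 0.14 (SE 0.06, adjusted p = 0.077). The difference between the diets was called for each of the 4, at -0.60 (SE 0.09, adjusted p = 1.5e-06) for H2-Aa, -0.69 (SE 0.09, adjusted p = 4.83e-07) for H2-Ab1, -0.64 (SE 0.08, adjusted p = 2.89e-07) for H2-Eb1 and -0.72 (SE 0.07, adjusted p = 2.26e-09) for Cd74. In control livers the HFD effect was 0.46 (SE 0.06), 0.35 (SE 0.07), 0.41 (SE 0.06) and 0.32 (SE 0.05) in the same order of genes. Ciita, the class II co-activator, was not called for a KO effect on either diet. It averaged 1.40 CPM and had KO effects of 0.14 (SE 0.26, adjusted p = 0.738) on chow and -0.62 (SE 0.28, adjusted p = 0.0936) on HFD. Ciita was lower on HFD in KO livers by -0.74 (SE 0.28, adjusted p = 0.0382), a call lost without replicate 2 (0.174) or 3 (0.0511) of KO livers on chow or replicate 1 (0.157) or 2 (0.0669) of KO livers on HFD.

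**Figure D3:**
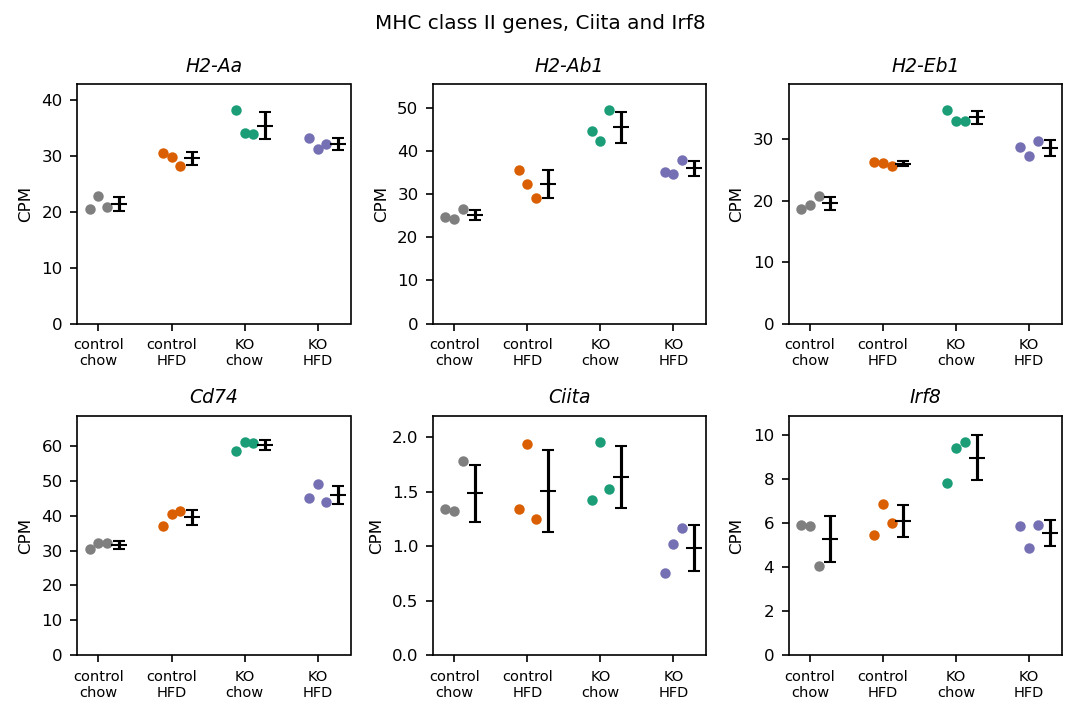
Level in CPM of the 4 MHC class II genes, of Ciita and of Irf8 in each of the 12 libraries (points), by group, with the mean and SD of the 3 libraries beside them. Cd74 reaches 58.8 to 61.3 CPM in KO livers on chow against 30.4 to 32.3 CPM in control livers on chow, while in Ciita the other groups overlap and the 3 libraries of KO livers on HFD are the lowest.

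Class II promoters carry a module read by RFX, CREB and NF-Y, and 2 of them are shown to place its parts. The Y box CTGATTGG and the CRE-like X2 box TGACGTCA were searched on both strands of the same 300-base windows. The Y box was found in 7 of the 29 members with an entry, among them H2-Aa, H2-Eb1, H2-K1 and H2-D1. Of all promoters, again counted singly rather than by gene, 4.10% held it. The CRE-like box was found in H2-Aa alone of the members with an entry, and in 1.79% of all promoters. H2-Ab1, Cd74 and Ciita had no entry, so their promoters were not searched. H2-Aa lies at chr17:34287774-34288073 (minus strand) and H2-Eb1 at chr17:34305617-34305916 (plus strand), and capitals mark the matches.
H2-Aa: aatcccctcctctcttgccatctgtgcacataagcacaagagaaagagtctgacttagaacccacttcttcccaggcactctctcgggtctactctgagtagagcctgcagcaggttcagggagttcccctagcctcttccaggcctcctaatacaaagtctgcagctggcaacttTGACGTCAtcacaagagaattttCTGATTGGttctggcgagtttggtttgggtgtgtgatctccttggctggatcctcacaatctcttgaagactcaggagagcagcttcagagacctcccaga
H2-Eb1: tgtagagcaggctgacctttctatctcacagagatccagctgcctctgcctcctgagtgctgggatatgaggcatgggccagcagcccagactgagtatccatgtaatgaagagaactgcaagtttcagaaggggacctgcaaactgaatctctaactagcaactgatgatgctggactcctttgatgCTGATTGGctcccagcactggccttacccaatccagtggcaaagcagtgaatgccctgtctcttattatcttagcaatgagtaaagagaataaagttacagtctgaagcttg
In H2-Aa the CRE-like box stands upstream of the Y box, and in H2-Eb1 the Y box was the only match to these 2 motifs. The genes with a Y box included members that differ in their response, such as H2-Aa and Tap1.

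Markers of several other cell types also differed between these groups. Of all tested genes 31.2% were called for KO against control livers on chow, 15.8% of them higher in KO livers as a share of all genes. For HFD against chow in control livers 37.7% were called, 18.8% higher, and for the difference of the KO effects 29.8%, 14.7% lower. All 12 macrophage and Kupffer cell markers were higher in KO than in control livers on chow, with a median log2 fold change of 1.29, and none of them was at 0. Their summed level was 181 to 189 CPM in control livers on chow, 199 to 206 in control livers on HFD, 451 to 469.8 in KO livers on chow and 290.3 to 298 in KO livers on HFD. That is the order of groups seen in H2-Aa, H2-Eb1 and Cd74, and the KO effect on all 12 was smaller on HFD in the test of the difference. Of the 5 general leukocyte markers, Ptprc, Coro1a, Laptm5 and Rac2 were higher in KO livers on chow, by 1.07 to 1.23 on the log2 scale, and Lcp1 stood at -0.07. The sum of the 5 was 105 to 107 CPM in control livers on chow and 129 to 131 CPM in KO livers on chow, against 101 to 105 CPM and 102 to 109 CPM on HFD. Of 8 endothelial markers, 6 were higher in KO livers on chow and 5 higher on HFD in control livers, and the KO effect was lower on HFD for 5. Their sums were 154 to 161 CPM in control livers on chow, 199 to 199.7 in control livers on HFD, 186 to 192 in KO livers on chow and 194 to 202 in KO livers on HFD. Of 8 stellate cell markers, 4 were higher in KO livers on chow and 6 higher on HFD in control livers, and the KO effect was lower on HFD for 5. Their sums were 168 to 177 CPM, 255 to 269 CPM, 214 to 222 CPM and 225 to 243 CPM in the same order of groups. In control livers 4 of the 12 macrophage markers were higher on HFD, 33.3% called beside 37.7% of all tested genes, so nothing is read from that count. On HFD 10 of the 12 were higher in KO than in control livers, 83.3% beside 32.4% of all tested genes called. Their median log2 fold change there was 0.52. In KO livers all 12 were lower on HFD than on chow, beside 36.6% of all tested genes called, with a median of -0.63. None of the endothelial or stellate cell markers was at 0. The part of all these cells in the class II, Irf8 and antiviral results was not tested.

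Few dendritic cell and B cell markers were called, at low levels. In KO against control livers on chow 14.3% and 20.0% of those tested were called, beside 31.2% of all tested genes. Their median log2 fold changes there were 0.52 and 0.33. The SEs were 0.16 (Zbtb46) to 0.51 (Flt3) for dendritic and 0.31 (Cd79a) to 0.46 (Pax5) for B cell markers. The difference of the KO effects had medians of -0.60 and -0.76, with 14.3% and 0.0% called beside 29.8% of all tested genes. The few calls thus do not show that these markers were unchanged. Of 10 dendritic cell markers 7 could be tested and 1 was higher in KO livers on chow, with sums of 9.82 to 10.7 CPM in control livers on chow, 11.99 to 14.9 in control livers on HFD, 11.3 to 15.5 in KO livers on chow and 12.03 to 12.4 in KO livers on HFD. Of 6 B cell markers 5 could be tested and 1 was higher in KO livers on chow, with sums of 3.13 to 3.93 CPM, 2.63 to 3.104 CPM, 4.31 to 5.23 CPM and 2.31 to 3.52 CPM in the same order of groups. Of 12 T and NK cell markers 2 passed the filter, and their sum was at most 6.16 CPM in any library. Neutrophil markers, by contrast, differed strongly. Of 8 tested, 7 were higher in KO livers on chow and 6 on HFD, beside 15.8% and 16.7% of all tested genes called higher. Their median log2 fold changes were 1.58 and 2.26. On HFD 7 were lower than on chow in each genotype, beside 18.9% of all tested genes called lower in control and 18.1% in KO livers. They summed to 15.5 to 16.3 CPM in control livers on chow, 0.8996 to 1.205 in control livers on HFD, 45.3 to 48.4 in KO livers on chow and 5.68 to 6.18 in KO livers on HFD, with Ly6g and Mpo at 0 in control livers on HFD. Of 5 cholangiocyte markers, Spp1, which other cells can express too, was higher in KO livers on chow by 1.97 on the log2 scale. Sox9 was higher there by 0.27, and Krt19, Krt7 and Epcam were not called. The 2 calls are 40.0% of the 5, beside 31.2% of all tested genes, so nothing is read from that count. These 5 markers summed to 51.7 to 58.03 CPM in control and 163 to 176 CPM in KO livers on chow. On HFD they summed to 48.3 to 51.01 CPM in control and 32.5 to 33.9 CPM in KO livers. The part of these cells in the results was not tested either.

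Of 50 other interferon-stimulated genes tested, 24 were higher and 2 lower in KO than in control livers on chow, which is 52.0% beside 31.2% of all tested genes. On HFD 11 were higher and 7 lower, 36.0% beside 32.4% of all tested genes. In control livers 10 were higher and 10 lower on HFD than on chow, 40.0% beside 37.7%, and in KO livers 5 were higher and 18 lower, 46.0% beside 36.6%. The difference of the KO effect between the diets was called for 13, 3 higher and 10 lower on HFD. That is 26.0% beside 29.8% of all tested genes, so it was called no more often here than in all genes. Ifitm3, which blocks viral fusion in endosomes, measured 251, 238 and 231 CPM in control livers on chow, 159, 162 and 175 in control livers on HFD, 329, 309.9 and 307 in KO livers on chow, and 258, 248 and 251 in KO livers on HFD. Control livers on HFD were the lowest and KO livers on chow the highest, as in Bst2. The KO effect on Ifitm3 was 0.39 (SE 0.03, adjusted p = 3.92e-11) on chow and 0.61 (SE 0.04, adjusted p = 1.58e-15) on HFD, with a difference of 0.22 (SE 0.05, adjusted p = 0.00101) that was lost once the length and GC trend was removed (adjusted p = 0.134).

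Ifitm2, its close relative, had KO effects of 0.47 (SE 0.09) on chow and 0.78 (SE 0.10) on HFD. Ifi27l2a had KO effects of 1.25 (SE 0.26, adjusted p = 0.000261) on chow and 1.41 (SE 0.26, adjusted p = 6.34e-05) on HFD, at levels of no more than 3.81 CPM. Gbp6, another guanylate-binding protein, was lower in KO livers on HFD by -0.62 (SE 0.21, adjusted p = 0.0224), a call lost without replicate 2 of control livers on HFD (0.0865) or replicate 2 (0.0516) or 3 (0.0992) of KO livers on HFD. Gbp6 and Gbp2 were thus both lower in KO livers on HFD, and both were higher on HFD than on chow in control livers, by 0.57 (SE 0.21, adjusted p = 0.0327) for Gbp6, which lost that call without any of 4 libraries, replicates 1 (0.098) and 3 (0.084) of control livers on chow and replicates 1 (0.054) and 2 (0.111) of control livers on HFD.

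Of 29 other antigen presentation genes tested, 13 were higher and 1 lower in KO than in control livers on HFD, 48.3% beside 32.4% of all tested genes. On chow 11 were higher and 2 lower, 44.8% beside 31.2%, and in control livers 5 were higher and 10 lower on HFD, 51.7% beside 37.7%. In KO livers 2 were higher and 11 lower on HFD, 44.8% beside 36.6%. The difference of the KO effect between the diets was called for 12, 4 higher and 8 lower on HFD, 41.4% beside 29.8%. Ctss, the protease that removes the invariant chain from class II molecules in antigen-presenting cells, measured 12.9, 14.3 and 11.5 CPM in control livers on chow, 13.9, 16.9 and 15.4 in control livers on HFD, 32.6, 30.9 and 32.6 in KO livers on chow, and 20.7, 20.5 and 19.5 in KO livers on HFD. KO livers on chow were the highest and KO livers on HFD the next, as in Cd74. The KO effect on Ctss was 1.31 (SE 0.08, adjusted p = 1.74e-15) on chow and 0.39 (SE 0.08, adjusted p = 0.000171) on HFD, with a difference of -0.92 (SE 0.11, adjusted p = 5.75e-08).

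H2-Q7, H2-Q6 and Psmb10 were named for a large KO effect on HFD, a choice that favours genes low in control livers on HFD, and they do not stand for the class I genes of that list. H2-Q7, a non-classical class I heavy chain, measured 76.2, 65.98 and 73.6 CPM in control livers on chow, 40.4, 45.02 and 41.96 in control livers on HFD, 77.04, 82.8 and 86.6 in KO livers on chow, and 62.6, 61.9 and 69.6 in KO livers on HFD. Control livers on HFD were below all other libraries, as in Psmb8. Its KO effect on HFD was 0.61 (SE 0.06, adjusted p = 1.65e-10), beside 0.19 (SE 0.05, adjusted p = 0.00477) on chow. The difference of the H2-Q7 effects was 0.41 (SE 0.08, adjusted p = 8.05e-05), and the call on chow was lost without replicate 2 of control livers on chow (0.0699). H2-Q6 had an effect on HFD of 0.48 (SE 0.06, adjusted p = 3.19e-07), beside -0.06 (SE 0.06, adjusted p = 0.523) on chow, and reads of H2-Q6 and H2-Q7 may have been shared. Psmb10, the remaining immunoproteasome subunit, was higher in KO livers by 0.39 (SE 0.05) on chow and 0.36 (SE 0.06) on HFD, and lower on HFD by -0.41 (SE 0.06) in control and -0.44 (SE 0.05) in KO livers.

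**Figure D4:**
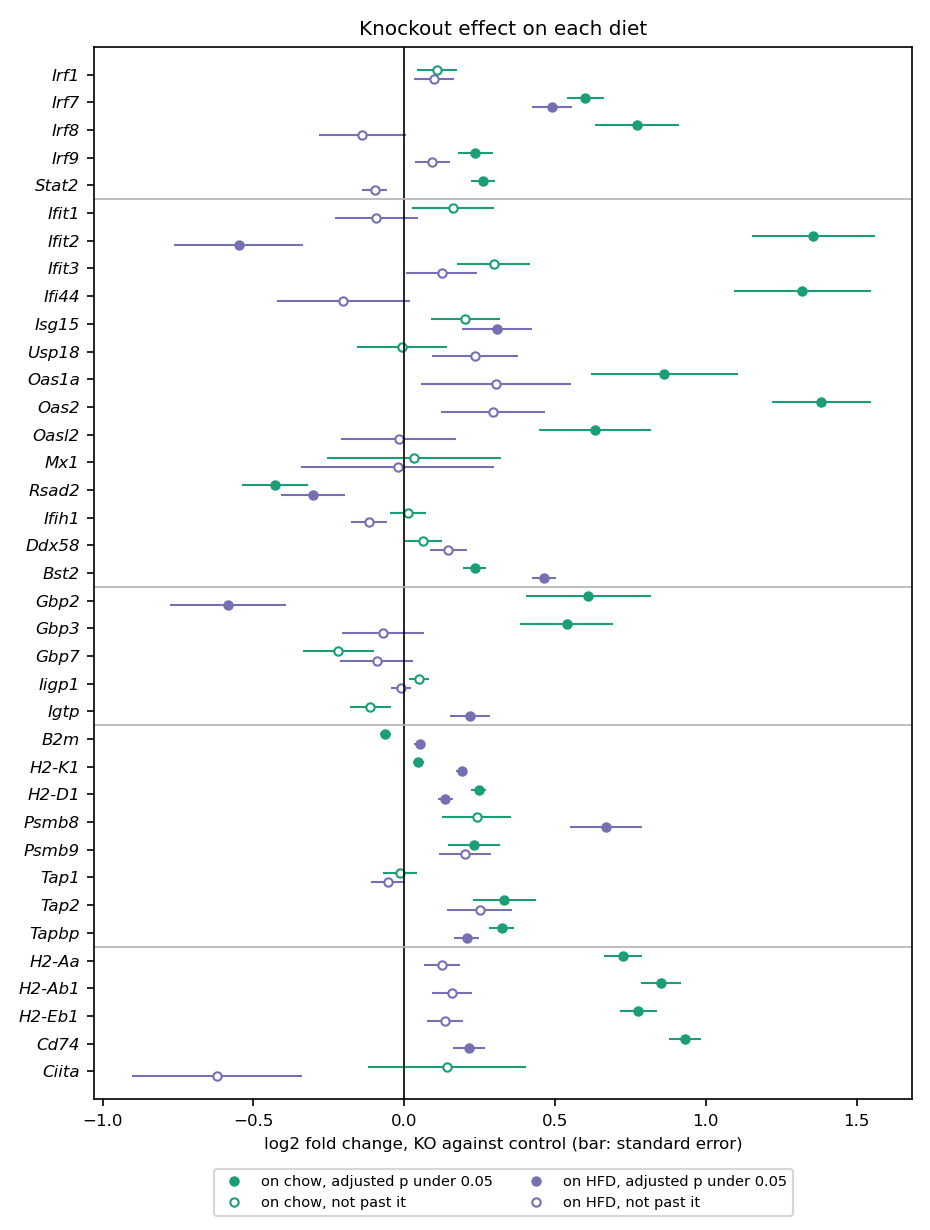
Log2 fold change of KO against control livers on chow and on HFD for each of the 37 members, grouped by role, with the standard error as a bar and filled points where the adjusted p is under 0.05. H2-Aa, H2-Ab1, H2-Eb1, Cd74, Ifit2, Ifi44, Oas2 and Irf8 lie far to the right on chow and near or below 0.21 on HFD, except Oas2 at 0.30, while Psmb8, Bst2, H2-K1 and Igtp lie further right on HFD.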

How the data were processed

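Per the labels' protocols, liver RNA was harvested with TRIzol and sequenced from Illumina libraries. The values deposited by the authors are raw counts per Ensembl gene in 12 libraries. The submitters' processing notes name Bowtie 0.12.2 and build mm8. The counting program, its annotation, its strand setting and its handling of multiply mapped reads are named in no source used here, so paralogs, overlapping and antisense genes may share reads. GENCODE M21 paired 53274 of the 53465 IDs with a symbol and gave exon lengths, all 12 columns were mapped to samples, and 26261 IDs had 0 counts in every library.

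From these counts, genes were filtered with filterByExpr (14778 left), scaled by TMM and fitted with edgeR 4.0.16 (glmQLFit, glmQLFTest, R 4.3.3) on all 12 libraries in 4 groups without covariates. CPM are counts relative to the TMM-scaled library size. A gene was called at a p under 0.05 after Benjamini-Hochberg adjustment over all tested genes. The SE is the size of the log2 fold change divided by the root of the F statistic. The common biological coefficient of variation was 3.95%. Libraries of a group differed by more than sampling noise: the median chi-square ratio was 1.59 to 2.34 in the 12 pairs within groups and 5.43 to 11.0 in the 54 pairs between groups. Alternatives were other scalings and filters, DESeq2 1.42.0, limma-voom 3.58.1, only the groups compared, a replicate block, removal of the length and GC trend, a fixed coefficient of variation of 20%, and leaving out each library. Promoter sequences are from RefSeq, build GRCm38.p6, and no coordinates of the counted genes are given, because the build named for the reads differs. The members and lists were chosen with earlier results of these data known. Every member is named by its role, Pld1 as the check of the labels, and from each of the 3 wider lists up to 4 called genes with the largest KO effect on HFD and no overlap between groups.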

Additional observations from a re-analysis of the deposited data

Results flagged for a closer look

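The KO effect differed between HFD and chow, in the edgeR interaction test, for 16 members, each given as the effect on HFD minus that on chow on the log2 scale. The difference was negative for 12: -0.91 for Irf8, -0.36 for Stat2, -1.90 for Ifit2, -1.52 for Ifi44, -1.09 for Oas2, -1.19 for Gbp2, -0.61 for Gbp3, -0.11 for H2-D1, -0.60 for H2-Aa, -0.69 for H2-Ab1, -0.64 for H2-Eb1 and -0.72 for Cd74. It was positive for 4: 0.23 for Bst2, 0.33 for Igtp, 0.11 for B2m and 0.14 for H2-K1. The call of H2-D1 was lost without replicate 2 of control livers on chow (adjusted p = 0.0738), replicate 3 of KO livers on chow (0.0675) or replicate 2 of KO livers on HFD (0.0622), and with the length and GC trend removed the difference was -0.03 (adjusted p = 0.41).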

How the results depend on the processing

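Of the 82 member calls in 185 tests, 61 were kept under every alternative except the fixed coefficient of variation, and 21 were lost under at least 1. With the coefficient of variation fixed at 20%, above the 3.95% found here, the members called fell to 0 for KO against control livers on HFD (edgeR, with 3 at an unadjusted p under 0.05, and 9 by DESeq2 and 12 by limma-voom without that setting), 2 for HFD against chow in control livers, 8 for KO against control livers on chow, 2 for HFD against chow in KO livers and 2 for the difference of the KO effects. The 8 kept on chow were Irf8, Ifit2, Ifi44, Oas2, H2-Aa, H2-Ab1, H2-Eb1 and Cd74. Leaving out a library gave 10 to 13, 14 to 16, 19 to 24, 13 to 16 and 15 to 18 members in the same order of comparisons. With the length and GC trend removed 4 values reversed: B2m to -0.0459 (adjusted p = 0.0266) on HFD, to 0.0013 (adjusted p = 0.961) on chow and to -0.0472 (adjusted p = 0.114) for their difference, and H2-K1 to -0.0464 (adjusted p = 0.0301) on chow. The cause was not tested. The same setting gave 5 higher and 11 lower members for HFD against chow in KO livers, beside 2 and 13. It also ended 9 calls: Stat2 (-0.09, adjusted p = 0.0659) and Ciita (-0.58, 0.102) for HFD against chow in KO livers, Ifit2 (-0.49, 0.0776), Isg15 (0.18, 0.272), Rsad2 (-0.23, 0.093) and Igtp (0.16, 0.0601) for KO against control on HFD, Psmb9 (0.13, 0.254) and Tap2 (0.22, 0.0858) for KO against control on chow, and H2-D1 (-0.03, 0.41) for the difference of the KO effects. With a replicate block the counts were 12, 15, 23, 15 and 16, and the call lost was that of Ifit2 on HFD (adjusted p = 0.0578). The replicate numbers share no stated batch, and 1 of the 18 same-number pairs of libraries had a correlation of deviations over 0.1 (range -0.111 to 0.103), so they were not taken as pairs. For members under 5 CPM, such as Mx1 and Ciita, depth limits what can be detected, and with 3 libraries a group no test for a single outlying library was made.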
